A study of Mus musculus with 32 samples.

Results

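Cytochrome P450 enzymes are heme proteins that insert an oxygen atom into lipids, steroids, vitamins, drugs and other foreign compounds. They were measured here in mammary gland through pregnancy and lactation, and in liver. The genes were chosen by name: every mouse gene whose symbol in the array's annotation is Cyp followed by a family number, a subfamily letter and a gene number, with Cyp51 left out. There were 38 such genes among the 8251 genes with a probe set of their own, on 45 probe sets. Where a gene had several probe sets (7 genes), the brightest over all 32 arrays stands for it. A further 7 probe sets named several Cyp genes at once and were not used. The choice used no measured difference.

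All samples came from wild-type FVB mice, and each was hybridised to its own array. Mammary gland of dams on normal lab chow was sampled on day 12 and day 17 of pregnancy and on days 1, 2 and 9 of lactation, with 4 arrays per stage. Further mammary glands came from dams on diets with 8%, 16% or 40% fat, with 3 arrays each, and liver from dams on 8% fat, with 3 arrays. Dams on 8% and 40% had left chow at lactation day 5 for soy oil diets that lasted 5 days, and their tissues were taken at lactation day 10. Neither the feeding nor the stage of the 16% group is described. Groups follow the sample titles, because the descriptions of the 8% and 16% mammary arrays name 40% fat. Dam ages are not stated, and the samples were whole tissue lysed individually. Values are log2 of the deposited intensity, as mean ± SD over the arrays of a group, and differences are on the same log2 scale. A group mean below 4.22, the median of all values on all arrays, is called below the line. Near that level the exact size of a change was not measured.

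Within a group every array correlated with its group's other arrays at 0.9901 to 0.9968 over all probe sets, and array medians ran from 16.1 to 21.5 on the linear scale. The tissue labels held against the markers. Of 10 hepatocyte markers measured, Alb and Apoa1 among them, 10 were higher in liver and 0 lay over the line in the gland on 8% fat. These 10 entered the tissue test described below through liver alone, so they had to be higher. Of all probe sets in that test 39.7% were higher in liver and 40.3% lower. The summed intensity of the 10 hepatocyte markers was 127000 to 140500 on the liver arrays and 96.8 to 179 on all gland arrays. All 7 luminal epithelial markers, the milk genes Csn2, Wap and Lalba included, were over the line in the gland on 8% fat. Of these 7, 5 were lower in liver, while Krt8 (8.59 ± 0.22 against 8.13 ± 0.10) and Krt18 (9.64 ± 0.08 against 9.01 ± 0.29) were higher there. The 5 lay below the line in liver, so they entered through the gland alone and had to be lower.

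Most P450 enzymes sit in the endoplasmic reticulum and take electrons from P450 oxidoreductase, with help from cytochrome b5, while a few in mitochondria take them from ferredoxin. Liver holds the broadest set, which clears drugs and makes bile acids, and receptors such as the Ah receptor, PXR (Nr1i2), CAR (Nr1i3) and PPAR alpha switch groups of these genes on. In the mammary gland, P450 enzymes are studied mostly for their action on estrogens, on retinoids and on carcinogens that reach the epithelium or the fat pad. The oxidoreductase gene Por and the aromatase gene Cyp19a1 had no probe set of their own and were not analysed here.

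Few of the 38 genes stood over the line in the gland. In all 8 gland groups 5 genes did so: Cyp2e1, which oxidises ethanol and ketone bodies, Cyp4b1, a fatty acid and xenobiotic hydroxylase, Cyp2f2, a naphthalene oxidase of the lung, Cyp2c70, which makes muricholic acids, and Cyp2d9, a steroid hydroxylase of male mouse liver. Another 9 did so in at least one gland group: Cyp1b1, Cyp4v3, Cyp1a2, Cyp2c38, Cyp2c39, Cyp2j5, Cyp4a10, Cyp4f13 and Cyp11a1. The other 24 lay below the line in every gland group. In liver 26 of the 38 were over the line, against 9 in the gland on the same diet. On the probe set that stands for the gene, 10 were over the line in no group of either tissue: Cyp17a1, Cyp1a1, Cyp21a1, Cyp24a1, Cyp27b1, Cyp2b10, Cyp2b19, Cyp2j6, Cyp2s1 and Cyp4a14. A dimmer second probe set of Cyp17a1 was over it in liver, as described below. Cyp2b10, the classic CAR target, lay just below it in liver (4.21 ± 0.09).

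The comparison of liver with mammary gland, at lactation day 10 on 8% fat, gave the widest differences. In limma's fit of those 6 arrays, with Benjamini-Hochberg adjustment over all probe sets tested, 26 members entered, of which 24 were higher in liver and 1 lower. Of all 6897 probe sets tested, 80% were called, 39.7% higher and 40.3% lower. The filter admitted 17 of the 26 through liver alone, so these had to differ and their count says nothing further. Of the 9 over the line in both tissues, 7 were higher in liver. Across all 38 members the median difference was 2.97, and across probe sets below the line in both tissues it was -0.28.

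By log2 difference the widest gaps lay in drug-metabolising subfamilies. With gland values below the line, Cyp2a12, Cyp2b9 and Cyp3a25 cannot be ranked against Cyp2c70, which was over it in both tissues. Cyp3a11, the main steroid and drug hydroxylase of mouse liver, read 12.37, 12.14 and 12.07 on the liver arrays and 2.78, 2.70 and 2.69 on the gland arrays. The gland values lay far below the line, so liver was at least 251-fold higher when counted from the line. Cyp2d10, of the subfamily that holds debrisoquine hydroxylases, read 12.33, 12.30 and 12.04 in liver against 3.14, 2.92 and 2.96, at least 257-fold. Its second probe set gave 12.26 and 1.63. Cyp2d26 of the same subfamily was at least 171-fold higher (11.63 ± 0.06 against 3.29 ± 0.27), and Cyp2a12, a steroid hydroxylase, at least 89.5-fold (10.70 ± 0.06 against 2.53 ± 0.02). Cyp2b9, a female-predominant liver enzyme, stood at 10.03 ± 0.14 against 2.05 ± 0.02, and Cyp3a25 at 10.78 ± 0.06 against 3.42 ± 0.03. These 6 genes entered the test through liver alone, so the lack of overlap between their 3 liver and 3 gland arrays adds nothing.

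The Cyp2c genes, which epoxidise arachidonic acid and oxidise drugs, split by how near the line the gland came. Cyp2c70 differed by 7.22 (12.14 ± 0.13 against 4.92 ± 0.07) and Cyp2c38 by 6.23 (10.82 ± 0.11 against 4.58 ± 0.27), with both tissues over the line. Cyp2c39, a retinoic acid hydroxylase, differed by 7.21 (11.27 ± 0.04 against 4.06 ± 0.37). Cyp2c29 reached only 6.22 ± 0.21 in liver, against 2.66 ± 0.03. Smaller gaps were measured for Cyp1a2, the caffeine and arylamine oxidase (9.54 ± 0.04 against 4.34 ± 0.02), Cyp3a16 (8.54 ± 0.59 against 3.57 ± 0.11), Cyp3a13 (7.96 ± 0.13 against 3.69 ± 0.02) and Cyp2b13 (5.58 ± 0.33 against 3.67 ± 0.03).

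Cyp7a1, Cyp7b1 and Cyp8b1, genes of bile acid synthesis, were over the line in liver and not in the gland. Cyp7a1, the rate-limiting enzyme of that pathway, read 6.86, 6.48 and 6.78 in liver and 3.12, 3.12 and 3.04 in the gland, at least 5.60-fold higher. Cyp7b1, which hydroxylates oxysterols, stood at 7.83 ± 0.23 against 3.16 ± 0.02. Cyp8b1, which makes cholic acid, stood at 7.83 ± 0.11 against 3.44 ± 0.03. Among fatty acid hydroxylases Cyp4a10, a PPAR alpha target, was at 8.65 ± 0.19 against 3.84 ± 0.10, Cyp4v3 at 9.26 ± 0.05 against 3.95 ± 0.09 and Cyp4f13 at 6.27 ± 0.07 against 4.99 ± 0.27. A second probe set of Cyp4f13 read 6.85 in liver and 4.12, below the line, in the gland. Cyp2j5, an epoxygenase, was at 5.94 ± 0.37 against 4.24 ± 0.09. Cyp26a1, which degrades retinoic acid, had the widest spread among liver arrays, with 4.38, 5.35 and 6.03 against 3.43 to 3.48 in the gland.

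**Figure D1:**
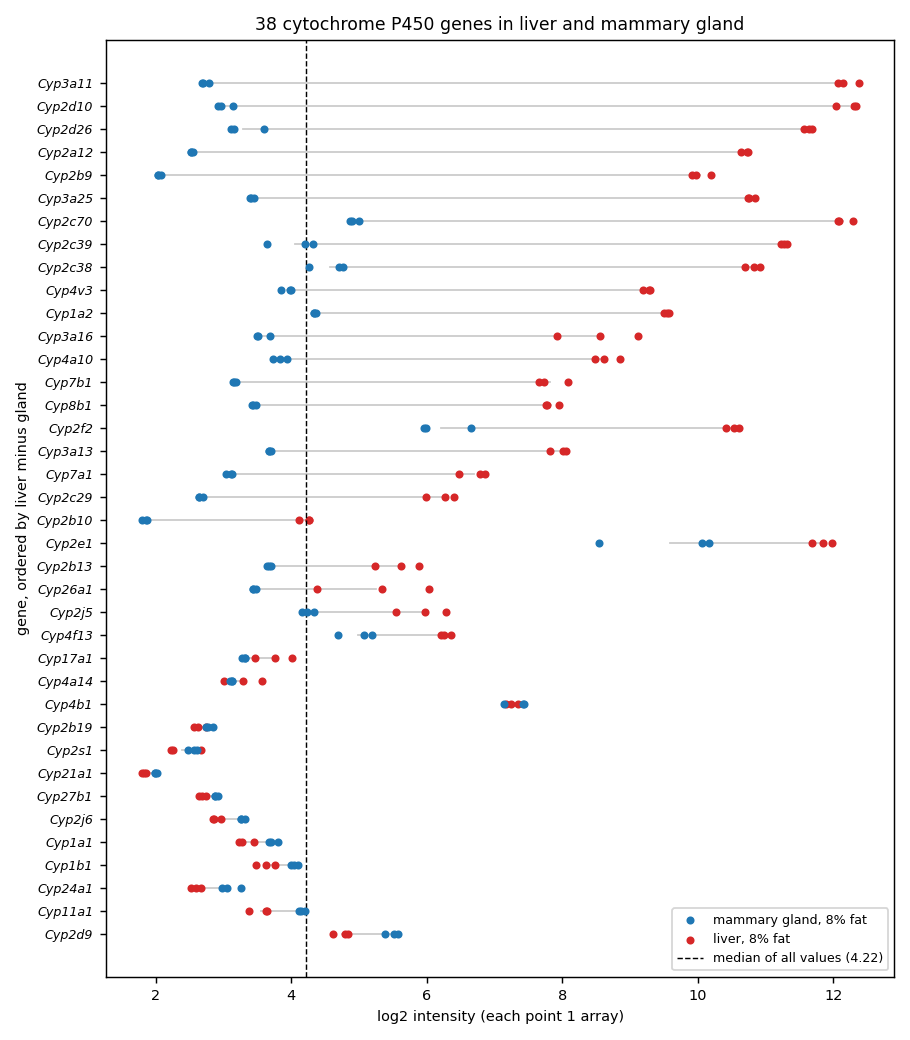
Log2 intensity of the 38 genes (vertical axis, ordered by liver minus gland) on each of 3 liver and 3 mammary gland arrays at lactation day 10 on 8% fat; each point is 1 array, grey lines join group means and the dashed line marks 4.22. Cyp3a11 sits at 12.07 to 12.37 in liver and 2.69 to 2.78 in the gland, while the points of Cyp4b1 overlap and Cyp2d9 is lower in liver.

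A few genes ran against that pattern or fell short of it. Cyp4b1 read 7.17, 7.35 and 7.24 in liver and 7.14, 7.42 and 7.44 in the gland, a difference of -0.08 (adjusted p = 0.543), with overlapping arrays; after quantile normalization it was called lower in liver (-0.51, adjusted p = 2.66e-03). Cyp2d9 was lower in liver, with 4.84, 4.79 and 4.62 against 5.38, 5.57 and 5.52, a difference of -0.74 ± 0.10 (SE, adjusted p = 2.93e-04). Of the 12 members below the line in both tissues, 9 also read lower in liver, as did most of the 5525 probe sets below the line in both, of which 9.38% were higher. Cyp2e1 read 11.98, 11.68 and 11.85 in liver and 10.17, 10.07 and 8.54 in the gland, a difference of 2.24 ± 0.40 (SE, adjusted p = 1.16e-03). The third gland array stood apart, and its summed adipocyte markers were 833 against 1970 and 1690 on the other arrays. A link between these readings was not tested. Without that array the difference was 1.72. Cyp2f2 was 4.32 higher in liver (10.52 ± 0.10 against 6.20 ± 0.39). Cyp17a1, the steroid 17-hydroxylase, was not tested, at 3.75 ± 0.28 against 3.31 ± 0.03. Its second, dimmer probe set read 8.21 in liver and 1.15 in the gland, so its probe sets disagree.

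Partner genes differed between the tissues in both directions, where 39.7% of all probe sets tested were higher in liver and 40.3% lower. Of 6 electron carriers tested 5 were higher and 1 lower: Pgrmc1, a heme-binding partner of P450 enzymes, by 5.24 and Cyb5a, cytochrome b5, by 1.80, while Cyb5r1 was lower by -1.93. Of 10 heme pathway genes tested 6 were higher and 2 lower, but 1 of the 6, Hmox2, entered through liver alone and had to be higher. Of the 9 heme genes over the line in the gland 5 were higher and 2 lower. Alas1, the rate-limiting step of heme synthesis in liver, stood at 11.26 ± 0.11 against 7.46 ± 0.20. Hmox1, which degrades heme, stood at 6.91 ± 0.05 against 6.11 ± 0.07. Of 22 regulators tested 16 were higher and 6 lower, but 7 of the 16, Ppara, Hnf4a and Nr1i2 among them, entered through liver alone and had to be higher. Of the 15 over the line in the gland 9 were higher and 6 lower. Ppara differed by 5.13, Hnf4a by 4.14, Ahr by 2.84, Nr1i3 by 1.91, Nr1i2 by 0.94, Arnt by 0.69 and Rxra by 0.68, whereas the vitamin D receptor Vdr was lower in liver by -6.11.

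The letters CAAAGTCCA, a site of the liver receptor HNF4 alpha, were sought on both strands of the 250 bases before the start of each gene in RefSeq's table for GRCm38.p6. Of 38 members 31 had a sequence there. A match was found in 4 of them (12.9%). Counted by window it was 4 of the members' 34 (11.8%), against 0.384% of all 32851 windows. All 4 genes were over the line in liver, but so were 26 of the 38 members. The matches are shown with 20 bases on either side, 5′ to 3′ on the gene's strand, with the matched letters in capitals. Cyp3a11 and Cyp3a16 belong to one subfamily on chromosome 5 and share ancestry, so their matches are not separate cases.
Cyp2c70, chr19:40187322-40187370, minus strand: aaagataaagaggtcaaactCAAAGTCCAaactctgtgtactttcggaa
Cyp3a11, chr5:145879935-145879983, minus strand: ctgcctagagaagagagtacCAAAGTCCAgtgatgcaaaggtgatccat
Cyp3a16, chr5:145469794-145469842, minus strand: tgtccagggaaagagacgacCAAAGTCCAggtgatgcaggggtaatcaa
Cyp8b1, chr9:121916344-121916392, minus strand: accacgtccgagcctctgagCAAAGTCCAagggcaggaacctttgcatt
The matches begin 64, 109, 99 and 67 bases before the annotated start, in that order. The longer HNF1 motif matched no member and 0.00913% of all windows. TATAAA occurred in 14 of the 31 genes (45.2%), and in 41.2% of the members' windows against 12.4% of all windows.

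Over the 5 chow stages 13 of the 38 genes entered limma's fit of 20 arrays, and the moderated F test called 13 of 13. Of all 7189 probe sets tested 87.5% were called, so the members' share is near the background. Of the 13, Cyp1a2, Cyp2c38, Cyp2j5, Cyp4a10, Cyp4f13 and Cyp11a1 were below the line at pregnancy day 12 and entered only through later stages. Cyp4v3 was below it on lactation days 2 and 9 and entered through earlier stages. Cyp1b1 was over the line in pregnancy and at lactation day 9. Between pregnancy day 12 and lactation day 9, the ends of the course, 8 were higher and 4 lower, against 35.2% higher and 42.4% lower among all probe sets tested (77.6% in all). All the late entrants were among the 8 and Cyp4v3 was among the 4, so the filter favoured their direction. Over the line at both ends were Cyp2d9 and Cyp2c70 of the 8, and Cyp1b1, Cyp2e1 and Cyp4b1 of the 4. Scaling each array to the same median over ribosomal protein genes (ribosomal scaling below) moved the median difference of the probe sets tested from -0.13 to 0.97 and the members' calls to 9 higher and 2 lower. After quantile normalization the calls were 8 higher and 3 lower.

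The steepest fall was in Cyp1b1, an estrogen and polycyclic hydrocarbon hydroxylase known from mesenchymal and steroid-responsive tissues. Its arrays read 8.84, 8.76, 8.47 and 9.01 at pregnancy day 12 and 6.5, 7.34, 6.58 and 6.14 at pregnancy day 17. They then read 4.04, 3.87, 4.08 and 3.96 at lactation day 1, below the line. From there the gland stayed between 3.83 and 4.40 on every array of lactation days 2 and 9 and of all 3 diets, and the pregnancy arrays overlapped with none of them. The fall was -2.13 ± 0.18 (SE, limma adjusted p = 2.44e-08) within pregnancy and -2.65 ± 0.18 (adjusted p = 2.60e-09) from pregnancy day 17 to lactation day 1. The latter was at least 5.36-fold, counted from the line. Day 12 to lactation day 9 differed by -4.50, and by -3.50 under ribosomal scaling. A second probe set of the gene lay below the line at all stages (3.15 to 3.96) and showed no fall. In liver Cyp1b1 read 3.62 ± 0.14.

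The Ah receptor, which switches Cyp1 genes on, binds the core letters GCGTG. They occur in the window before Cyp1b1 once, as CACGC on the printed strand, 76 bases before the start (chr17:79715062-79715311, minus strand, GRCm38.p6, capitals mark the match).
Cyp1b1: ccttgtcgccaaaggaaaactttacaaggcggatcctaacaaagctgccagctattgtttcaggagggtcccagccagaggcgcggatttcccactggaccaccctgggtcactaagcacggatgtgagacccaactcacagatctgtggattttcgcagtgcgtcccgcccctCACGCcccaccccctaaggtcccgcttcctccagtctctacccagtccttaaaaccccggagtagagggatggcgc
The same letters were found in 4 of 31 members (12.9%), Cyp1a1, Cyp1b1, Cyp2b10 and Cyp4v3, and in 11.8% of the members' windows against 28.2% of all windows. The 3 Cyp1 genes differed over the course. Cyp1a1, the most inducible target of that receptor, stayed below the line (3.23 ± 0.20 at pregnancy day 12 and 3.92 ± 0.10 at lactation day 9). Cyp1a2 read 3.96 ± 0.21 and 4.80 ± 0.49. Ahr itself was 5.45 ± 0.30 at pregnancy day 12, 5.33 ± 0.50 at day 17, 4.43 ± 0.09 at lactation day 2 and 4.59 ± 0.23 at day 9 (day 9 against pregnancy day 12, -0.86, adjusted p = 3.31e-03). Its partner Arnt differed by 0.25 over that span (adjusted p = 0.0593).

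Cyp2e1 fell in pregnancy and was higher again once lactation had begun. It read 10.98, 11.42, 11.47 and 10.61 at pregnancy day 12 and 9.05, 9.06, 9.27 and 9.08 at day 17, without overlap, a fall of -2.0 ± 0.22 (SE, adjusted p = 9.59e-07). At lactation day 1 it read 9.83, 10.43, 10.34 and 9.41, each above all arrays of day 17, a rise of 0.89 ± 0.22 (adjusted p = 6.46e-03). Lactation day 2 gave 9.67 ± 0.30 and day 9 gave 10.03 ± 0.31. Day 2 against pregnancy day 17 was called by a narrow margin (0.56, adjusted p = 0.0453). The call was lost without lactation day 2 replicate 2 or 3 or pregnancy day 17 replicate 1, 2 or 4, with values of 0.42 to 0.64 over the arrays left out. Lactation day 9 remained -1.09 below pregnancy day 12 (adjusted p = 2.02e-04), but only -0.09 (adjusted p = 0.753) under ribosomal scaling. The window before the gene (chr7:140763569-140763818, plus strand, GRCm38.p6) holds TATAAA, in capitals, 31 bases before the start.
Cyp2e1: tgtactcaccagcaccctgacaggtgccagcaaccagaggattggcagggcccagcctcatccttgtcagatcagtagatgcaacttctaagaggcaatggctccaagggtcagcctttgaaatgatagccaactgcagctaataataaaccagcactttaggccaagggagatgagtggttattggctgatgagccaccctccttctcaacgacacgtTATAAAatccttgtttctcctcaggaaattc

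Cyp4v3, a fatty acid hydroxylase widely expressed outside the liver too, read 5.54, 5.96, 5.40 and 5.94 at pregnancy day 12 and 5.25, 4.97, 4.0 and 4.22 at day 17, with a fall of -1.10 ± 0.23 (SE, adjusted p = 8.52e-04). The day 17 arrays fell into a higher and a lower pair, and none reached the day 12 arrays. By lactation day 2 the gene lay below the line (3.87 ± 0.27), and the step from day 17 was -0.74 (adjusted p = 0.0127). Without replicate 1 of pregnancy day 17 that step missed the threshold (-0.53, adjusted p = 0.0603), as it did under ribosomal scaling (-0.15, adjusted p = 0.666). Cyp4b1 read 8.78, 8.36, 7.94 and 7.80 at pregnancy day 12 and 6.84, 7.22, 7.72 and 7.43 at day 17, a fall of -0.92 ± 0.19 (SE, adjusted p = 6.72e-04), without overlap. It was lowest at lactation day 2 (6.83 ± 0.06) and stood at 7.31 ± 0.18 at day 9. Day 9 against pregnancy day 12 gave -0.91 (adjusted p = 2.20e-04), -0.42 (adjusted p = 0.0589) after quantile normalization and 0.0927 (adjusted p = 0.698) under ribosomal scaling. Its narrow call at lactation day 2 against pregnancy day 17 (-0.47, adjusted p = 0.0436) rested on overlapping arrays. That call was lost on leaving out any of 7 of the 8 arrays, pregnancy day 17 replicate 1 being the exception, with values of -0.63 to -0.33.

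Markers of fat, connective tissue and macrophages moved over the same steps. From pregnancy day 12 to 17, 6 of 8 adipocyte markers, 3 of 7 fibroblast markers and 5 of 6 macrophage markers tested were lower, while 1 of 4 myoepithelial markers tested was higher and 0 lower. Of 7 luminal markers 4 were higher and 1 lower, and of 6 endothelial markers 2 were higher and 1 lower. Of all probe sets tested 26.7% were lower over this step and 18.4% higher. By lactation day 9, 8 of 8 adipocyte and 7 of 7 fibroblast markers were lower than at pregnancy day 12, with median differences of -2.46 and -2.63. So were 6 of 6 macrophage markers tested (median of the 7 measured, -2.12) and 4 of 4 myoepithelial ones. Of all probe sets tested 42.4% were lower over this span and 35.2% higher. Other lists were mixed over the span. Of 7 luminal markers 3 were lower (Krt8, Krt18 and Krt19) and 3 higher (Csn2, Wap and Lalba). Of 6 endothelial markers 3 were lower and 2, Pecam1 and Flt1, higher. Summed adipocyte intensity was 8326 to 12780 at pregnancy day 12, 4249 to 5137 at day 17, 2448 to 4953 at lactation day 1, 2028 to 3388 at day 2 and 1261 to 2043 at day 9. Summed fibroblast intensity ran from 12760 to 15990 at pregnancy day 12 and from 1321 to 4091 at lactation day 9. The macrophage sum ran from 1484 to 2293 and from 328 to 736, and the myoepithelial sum from 2950 to 3926 and from 951 to 1690. Their part in the falls of Cyp1b1, Cyp2e1, Cyp4v3 and Cyp4b1 was not tested. In whole tissue, fewer cells of a type and less RNA per cell cannot be told apart. At lactation day 1 against pregnancy day 17, where Cyp2e1 was higher, 2 of 8 adipocyte markers were lower and 0 higher. Of all probe sets tested 14% were lower and 9.32% higher. The adipocyte sums of these stages overlapped, and their relation to Cyp2e1 was not tested.

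**Figure D2:**
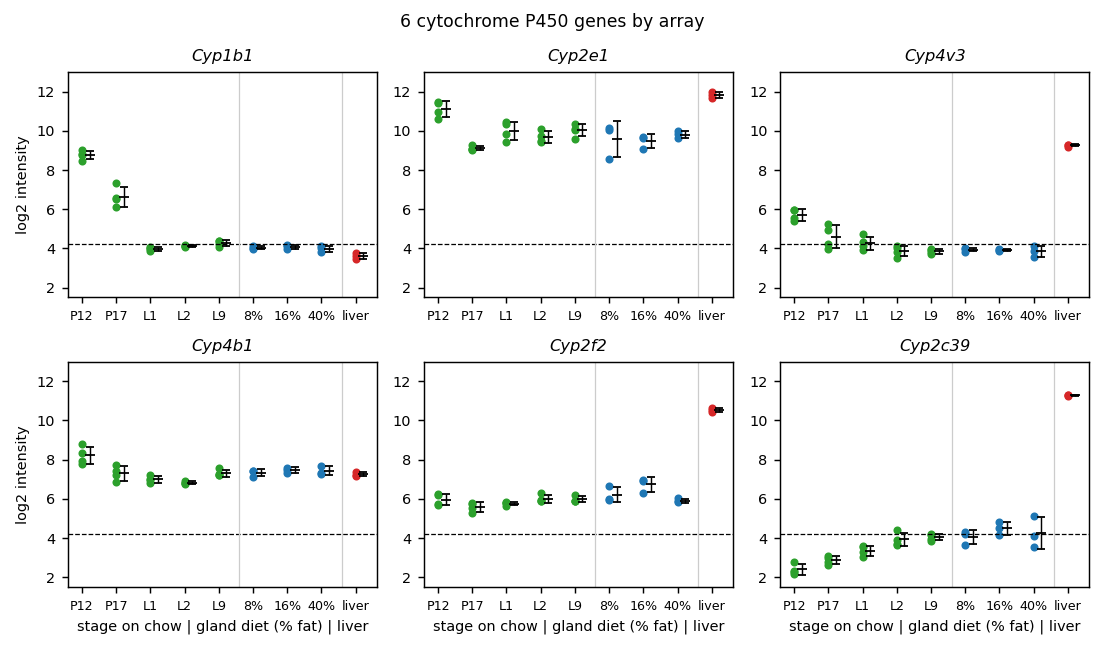
Log2 intensity of 6 genes by array at the 5 chow stages, from pregnancy day 12 to lactation day 9 (green, 4 arrays each), in the gland by diet (blue, 3 arrays each) and in liver on 8% fat (red, 3 arrays); black bars give mean ± SD and the dashed line marks 4.22. Cyp1b1 drops from 8.77 to below the line by lactation day 1, and Cyp2e1 dips at pregnancy day 17. The group mean of Cyp2c39 climbs from 2.40 without passing the line on chow, though replicate 2 of lactation day 2 reads 4.41.

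Cyp2f2 was nearly level over the course, at 5.96 ± 0.30, 5.59 ± 0.24, 5.76 ± 0.09, 6.0 ± 0.19 and 5.98 ± 0.15 from pregnancy day 12 to lactation day 9. The ends differed by 0.01 (adjusted p = 0.941), by 0.43 (adjusted p = 8.02e-03) after quantile normalization and by 1.01 under ribosomal scaling. Its dip at pregnancy day 17 (-0.38, adjusted p = 0.0405) was lost without pregnancy day 12 replicate 1 or 4 or day 17 replicate 2 or 4. The return by lactation day 2 (0.41, adjusted p = 0.0239) was lost without lactation day 2 replicate 2 or day 17 replicate 2 or 4.

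The 8 genes that were higher at lactation day 9 than at pregnancy day 12 all lay near the line. Cyp2d9 rose most, from 4.99, 4.56, 4.84 and 4.76 to 5.79, 5.74, 5.54 and 6.30 (1.06, adjusted p = 5.25e-06), without overlap. Cyp4a10 followed (3.21 ± 0.17 to 4.24 ± 0.24), then Cyp2c70 (4.30 ± 0.22 to 5.22 ± 0.16), Cyp2c38 (3.85 ± 0.14 to 4.73 ± 0.05) and Cyp2j5 (3.72 ± 0.14 to 4.60 ± 0.19). Cyp1a2 rose by 0.84, with 4.68, 4.40 and 4.59 on 3 of the day 9 arrays and 5.52 on replicate 4, and by 0.60 without that array. Cyp11a1, which makes pregnenolone from cholesterol, rose from 3.75 ± 0.15 to 4.51 ± 0.06, and Cyp4f13 from 4.04 ± 0.21 to 4.62 ± 0.14. A second, dimmer probe set of Cyp4f13 lay below the line at every chow stage, at 3.78 on pregnancy day 12 and 4.18 on lactation day 9.

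Low values drifted upward over the course as a whole. Of 5179 probe sets below the line in all gland groups, 92.5% were higher at lactation day 9 than at pregnancy day 12, with a median of 0.47. The 24 members below the line in the gland did the same, 24 of 24 higher by 0.27 to 0.81 with a median of 0.55. After quantile normalization these medians were 0.07 and 0.14. The rises of the 8 tested genes, 0.58 to 1.06, stand beside that drift, and its part in them was not tested. After quantile normalization Cyp2d9 rose by 1.29, Cyp2c70 by 0.91, Cyp1a2 by 0.66, Cyp2c38 by 0.65, Cyp2j5 by 0.60, Cyp11a1 by 0.45 and Cyp4f13 by 0.37, and Cyp4a10 no longer entered the test. Among members below the line on chow, Cyp2c39 moved most, from 2.32, 2.79, 2.18 and 2.29 at pregnancy day 12 to 3.97, 4.14, 4.19 and 3.85 at lactation day 9. Its groups do not overlap and their means differ by 1.64, but it was not tested, and it was singled out after its values were seen.

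**Figure D3:**
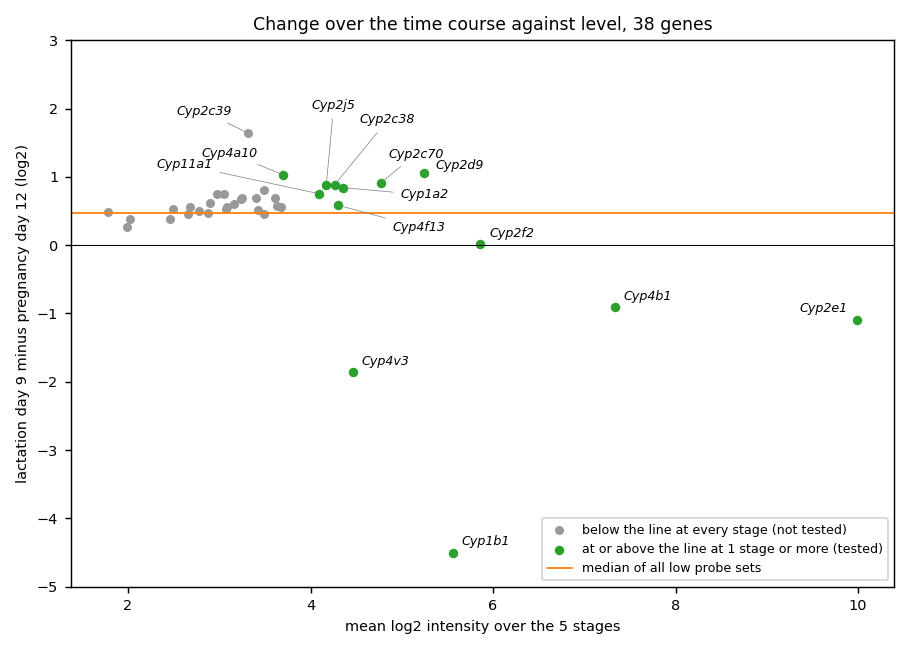
Difference between lactation day 9 and pregnancy day 12 (log2, vertical axis) against mean log2 intensity over the 5 chow stages (horizontal axis) for the 38 genes; green genes were tested, grey genes lay below 4.22 at every stage, and the orange line is the median of 5179 low probe sets, 0.47. All grey points lie above 0, Cyp2c39 lies highest at 1.64, and Cyp1b1, Cyp4v3, Cyp2e1 and Cyp4b1 lie below 0.

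The single steps gave fewer calls. From pregnancy day 12 to 17, 4 members were higher and 5 lower, against 18.4% and 26.7% of all probe sets tested (45.1% in all). The 5 were Cyp1b1, Cyp2e1, Cyp4v3, Cyp4b1 and Cyp2f2, and the 4 were Cyp2c38 (0.29), Cyp2c70 (0.28), Cyp2j5 (0.28) and Cyp11a1 (0.23). Low probe sets had a median of 0.16 over this step, and Cyp2c38, Cyp2j5 and Cyp11a1 were below the line at both stages. On leaving out each of the 8 arrays in turn, Cyp2c70 lost its call 6 times (all but pregnancy day 12 replicate 3 and day 17 replicate 1). Cyp2j5 also lost it 6 times (all but day 12 replicate 1 and day 17 replicate 1), and Cyp11a1 5 times (day 12 replicates 2 and 3 and day 17 replicates 1, 2 and 3). Ribosomal scaling gave 7 higher and 4 lower, and quantile normalization 2 higher and 4 lower. Cyp1a2 (0.33, adjusted p = 0.107) and Cyp4a10 (0.25, adjusted p = 0.113) were the largest uncalled differences. At lactation day 1 against pregnancy day 17 Cyp2e1 was higher and Cyp1b1 lower, 2 of 13, against 9.32% higher and 14% lower among all probe sets tested (23.3% in all). Ribosomal scaling gave 2 higher and 1 lower. The largest uncalled differences were Cyp4v3 (-0.34, adjusted p = 0.330) and Cyp4b1 (-0.31, adjusted p = 0.268). At lactation day 2 against day 1 limma called 0 of 13, with 2 at an unadjusted p under 0.05, against 14.3% of all probe sets tested; Cyp4v3 (-0.41, adjusted p = 0.235) and Cyp2e1 (-0.33, adjusted p = 0.321) were the largest.

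At lactation day 2 against pregnancy day 17, the step over which milk secretion starts, 7 members were higher and 3 lower, against 25.5% and 24.5% (49.9% in all). Ribosomal scaling gave 10 higher and 1 lower, and quantile normalization 4 higher and 2 lower. The 3 were Cyp1b1 (-2.51), Cyp4v3 and Cyp4b1. Besides Cyp2e1 and Cyp2f2 the higher ones were Cyp4a10 (0.46), Cyp2j5 (0.44), Cyp2c70 (0.43), Cyp2c38 (0.24) and Cyp11a1 (0.21), where the low probe sets had a median of 0.19. Cyp4a10 and Cyp11a1 were below the line at both stages, and Cyp2c38 and Cyp2j5 at pregnancy day 17. Of the lower genes, Cyp1b1 and Cyp4v3 were below it at lactation day 2. Cyp11a1 lost its call on leaving out 7 of the 8 arrays (all but day 17 replicate 1), and Cyp2c38 without lactation day 2 replicate 1 or day 17 replicate 1 or 2. After quantile normalization Cyp11a1 differed by 0.04 (adjusted p = 0.729) and Cyp2c38 by 0.08 (adjusted p = 0.460). Cyp2d9 (0.34, adjusted p = 0.0803) and Cyp4f13 (0.15, adjusted p = 0.378) were not called. At lactation day 9 against day 2, 3 members were higher and 0 lower, against 8.82% and 16.2% (25% in all): Cyp2d9 (0.51, adjusted p = 0.0205), Cyp2c38 (0.36) and Cyp11a1 (0.31). Cyp11a1 was over the line at lactation day 9 alone among the chow stages, so it entered through the stage where it was higher. Without replicate 4 of lactation day 9, Cyp2d9 missed the threshold (0.36, adjusted p = 0.0911). Cyp4b1 (0.48, adjusted p = 0.0694) and Cyp1a2 (0.41, adjusted p = 0.0810) were not called.

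Partner genes changed in both directions over the course. From pregnancy day 12 to lactation day 9, 3 of 6 electron carriers were higher and 2 lower, 3 of 10 heme genes higher and 3 lower, and 8 of 15 regulators higher and 4 lower. Most probe sets changed over this span too, with 35.2% of all tested higher and 42.4% lower (77.6% in all). Among the 8 higher regulators, Rxrg (3.99 ± 0.32) and Nr3c1 (3.83 ± 0.17) were below the line at pregnancy day 12. Both entered only through later stages, where they read higher. Alas1 fell from 8.89 ± 0.22 to 7.08 ± 0.51 and Pgrmc1 from 7.36 ± 0.40 to 5.60 ± 0.22. Alad, the next enzyme of heme synthesis, fell by -1.23, Ppox, a late one, rose by 1.49, and Hmox1 differed by 0.06 (adjusted p = 0.688). Among regulators Cebpa, also an adipocyte marker, fell by -2.56, Nr1h3 by -1.46, and Rora (2.34), Vdr (1.89), Rxra (0.87) and Nr1i3 (0.61) rose. Hnf4a, Nr1i2 and Ppara were below the line at every chow stage.

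Diet left the members without a call. Of 11 tested in limma's fit of the 9 mammary arrays, 0 were called at 40% against 8% fat, 0 at 40% against 16% and 0 at 16% against 8%, with 1 each at an unadjusted p under 0.05. Of the 6483 probe sets tested 0.0925%, 0.123% and 0% were called. Cyp2f2 read 6.65, 6.0 and 5.96 on 8% fat, 6.96, 6.32 and 6.92 on 16% and 5.83, 5.87 and 6.03 on 40%. The 16% arrays were all above the 40% arrays, a difference of -0.82 for 40% minus 16% (adjusted p = 0.156), and 16% minus 8% was 0.53 (adjusted p = 0.369). Cyp2d9 read 5.38, 5.57 and 5.52 on 8% fat and 5.63, 5.97 and 6.08 on 40%, without overlap (0.40, adjusted p = 0.547). Cyp2c39 varied most within a diet, at 3.56, 4.08 and 5.12 on 40% fat, and Cyp2e1 stood at 9.59 ± 0.91, 9.47 ± 0.35 and 9.81 ± 0.18 from the lowest to the highest fat.

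The remaining members lay below the line in the gland, and their changes over the stages were not tested. Cyp21a1, the steroid 21-hydroxylase, ran from 1.84 to 2.11 and Cyp24a1, which degrades vitamin D, from 2.61 to 3.35 over the chow stages. Cyp27b1, which activates vitamin D, ran from 2.62 to 3.09, Cyp17a1 from 2.87 to 3.57 and Cyp26a1 from 3.14 to 3.65. Cyp2s1, Cyp2j6, Cyp2b19 and Cyp4a14 reached at most 2.65, 3.55, 3.02 and 3.37 at a chow stage. None of these readings shows that a transcript was absent, only that the probe set was not brighter than the median of the array set.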

How the data were processed

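RNA was measured on 32 arrays of 12488 probe sets. The authors deposited 1 table of linear intensity, made with GCRMA per the submitters' processing notes; its version and settings are not stated there. GCRMA corrects background by probe sequence and normalizes between arrays. From it, log2 was taken after a floor at 1 (208 values lay below). Probe sets were named by the array's annotation; 66 controls were left out. Suffixes other than plain _at, on 8 of 38 members, mark probe sets that may bind related transcripts, and the Cyp2 to Cyp4 subfamilies hold near-identical copies, so those members' values are uncertain.

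Probe sets whose highest group mean in a fit reached 4.22 (18.6 linear) were tested with limma 3.58.1 in R 4.3.3, in fits of 6 (tissue), 20 (stages) and 9 arrays (diets), with calls where p, adjusted by Benjamini-Hochberg over all probe sets tested, was under 0.05. The script was tested on simulated data. Tables and figures used pandas 2.3.3 and matplotlib 3.10.9. In each comparison up to 12 called members by size, the 2 largest uncalled ones, and fixed genes were named. Members and lists were chosen with earlier results of these data known. Further alternatives were the pseudocount, the filter, quantile and ribosomal scaling, the set of groups, the mean of all probe sets and leaving out each array.

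Samples are labelled as individual, but nothing states separate litters, so p-values measure the spread between these samples. Liver and gland on 8% fat may stem from the same dams; the labels do not match animals. No 2 arrays shared more than 0.328% identical values. Same-numbered arrays correlated at -0.238 to 0.28 in their deviations from group means, so the numbers were not treated as pairs. Raw array files, a genome and protein sequences were not used here.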

Additional observations from a re-analysis of the deposited data

Results flagged for a closer look

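In 46 sets of 4 arrays (a member over the line at a stage) the highest or lowest array was examined for a gap to the others that was wide against the range, and 8 showed one; chance alone flags about 1 in 20 sets. At pregnancy day 17, Cyp2e1 read 9.27 on replicate 3 and 9.05 to 9.08 on the others. At lactation day 1, Cyp4f13 read 3.99 on replicate 4 and 4.30 to 4.37 on the others. Replicate 2 of lactation day 2 gave 6.28 for Cyp2f2, against 5.88 to 5.92, and 4.32 for Cyp2j5, against 4.47 to 4.48. Replicate 2 of lactation day 9 gave 4.98 for Cyp2c70, against 5.28 to 5.30, and 4.32 for Cyp2j5, against 4.67 to 4.71. Replicate 1 of that day gave 6.20 for Cyp2f2, against 5.88 to 5.91, and 7.57 for Cyp4b1, against 7.20 to 7.26.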

How the results depend on the processing

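Counts of called members depended most on the filter. With no filter, 38 were called for any stage, 35 at lactation day 2 against pregnancy day 17, 27 at pregnancy day 17 against day 12, 4 at lactation day 2 against day 1 and 37 at lactation day 9 against pregnancy day 12. The 75th percentile as filter tested fewer genes: it gave 3 for any stage, 3 at lactation day 2 against pregnancy day 17, 3 within pregnancy, 3 for the ends of the course and 0 at lactation day 9 against day 2. Quantile normalization gave 6 at lactation day 2 against pregnancy day 17 and 5 at lactation day 9 against day 2. A fit of the compared groups alone gave 4 at pregnancy day 17 against day 12 and 2 at lactation day 2 against day 1. The latter gave 1 with the mean of all probe sets and 6 under ribosomal scaling. All 9 groups in one fit gave 5 at lactation day 9 against day 2 and 1 at 40% against 16% fat, Cyp2f2. Under ribosomal scaling Cyp4b1 turned to 0.12 (adjusted p = 0.613) at lactation day 2 against pregnancy day 17 and to 0.0927 (adjusted p = 0.698) for the ends. The cause was not tested.

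Leaving out each array gave 25 to 26 calls between tissues, 11 to 13 for any stage, 5 to 11 at lactation day 2 against pregnancy day 17, 5 to 9 within pregnancy, 2 at lactation day 1 against pregnancy day 17, 0 to 1 at lactation day 2 against day 1, 2 to 5 at lactation day 9 against day 2, 11 to 12 for the ends and 0 for each diet pair. A replicate block gave 6 calls within pregnancy (Cyp2c70, Cyp2f2 and Cyp2j5 lost), 9 at lactation day 2 against pregnancy day 17 (Cyp4b1 lost) and 12 for any stage (Cyp2f2 lost), and changed no other call. For single genes, 626 of the other alternatives left the call as it was, 27 lost a call, 16 gained one and 2 called differences turned direction. A difference called in neither fit was counted as unchanged even where its sign turned. Cyp4b1 at lactation day 2 against day 1 was such a case (-0.16, and 0.17 under ribosomal scaling). With 3 or 4 arrays a group and values near background, small differences of low genes could not be resolved.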
